A study of Homo sapiens with 2 samples.

Results

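Metallothionein genes and genes that set cellular zinc were followed in HepG2, a line grown from a human liver carcinoma. The cells had been given an ethanol extract of the polyherbal Tibetan preparation Padma 28 at 218 μg/ml for 18 h, or 0.9% ethanol as the solvent control (EtOH). The sources used here do not state how much ethanol the cells with extract received. The genes taken were MT1E, MT1F, MT1G, MT1H, MT1M, MT1X and MT2A, the zinc exporter SLC30A1, the related transporter SLC30A10 and the metal-sensing transcription factor MTF1. All 10 genes had probe sets on the Affymetrix U133 Plus 2.0 array, 18 of 54675 in all, and every one of these was used. None of the 18 was annotated to a further gene. Cells of 3 cultures per treatment had been pooled before RNA isolation and hybridised to 1 array, so the spread from culture to culture is unknown and no p-value is given. The values are log2 expression values, and differences are Padma 28 minus EtOH on that scale, so that a difference of -1 stands for 2-fold lower. In RNA from a whole culture, fewer cells with a transcript and less transcript per cell cannot be told apart.

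Metallothioneins are small, cysteine-rich proteins that bind zinc, copper and cadmium, and the liver is a main site of their synthesis. MTF1 is activated by zinc and binds metal response elements (MRE) in the promoters of the metallothionein genes and of SLC30A1, which exports zinc across the plasma membrane. SLC30A10 belongs to the same transporter family and exports manganese from liver cells and neurons. Metallothionein transcripts are also known to be induced by glucocorticoids and by oxidative stress.

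Because the metallothioneins and SLC30A1 are textbook MTF1 targets, the bases before their transcription starts are shown first. RefSeq promoter windows of GRCh38.p14 were matched for 6 of the 10 genes, with 2 windows for SLC30A10, and none was matched for MT1E, MT1F, MT1G and MT1M. Capitals mark the MRE core, searched as TGCACNC and TGCGCNC on both strands in the 250 bases before the start. Each window is written along the strand of its gene, so a core on the opposite strand appears as its reverse complement.

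MT2A, chr16:56608334-56608583 (+ strand): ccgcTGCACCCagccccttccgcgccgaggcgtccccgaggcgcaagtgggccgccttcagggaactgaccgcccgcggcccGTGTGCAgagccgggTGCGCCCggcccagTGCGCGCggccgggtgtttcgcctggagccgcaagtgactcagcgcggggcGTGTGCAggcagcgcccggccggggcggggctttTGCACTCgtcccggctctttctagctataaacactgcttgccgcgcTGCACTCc
MT1H, chr16:56669564-56669813 (+ strand): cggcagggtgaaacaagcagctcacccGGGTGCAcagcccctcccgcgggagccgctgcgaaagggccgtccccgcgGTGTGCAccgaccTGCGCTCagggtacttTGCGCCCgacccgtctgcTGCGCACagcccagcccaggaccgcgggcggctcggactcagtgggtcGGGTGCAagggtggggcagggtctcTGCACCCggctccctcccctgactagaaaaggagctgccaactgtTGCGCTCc
MT1X, chr16:56682220-56682469 (+ strand): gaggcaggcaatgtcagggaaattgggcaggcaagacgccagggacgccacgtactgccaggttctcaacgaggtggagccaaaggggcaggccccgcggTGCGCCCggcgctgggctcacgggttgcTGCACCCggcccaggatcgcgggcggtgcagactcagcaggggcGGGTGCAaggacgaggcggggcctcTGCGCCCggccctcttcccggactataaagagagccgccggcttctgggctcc
SLC30A1, chr1:211579162-211579411 (- strand): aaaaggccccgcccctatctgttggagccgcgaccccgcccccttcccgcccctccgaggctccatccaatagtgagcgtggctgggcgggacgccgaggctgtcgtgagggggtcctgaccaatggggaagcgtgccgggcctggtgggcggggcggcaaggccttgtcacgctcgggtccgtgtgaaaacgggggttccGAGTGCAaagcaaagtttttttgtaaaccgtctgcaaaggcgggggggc

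MT2A held 7 such cores, MT1H 8, MT1X 4 and SLC30A1 1, while the windows of MTF1 and both windows of SLC30A10 held 0. Of 35116 promoter windows searched in the same way, 24.8% held at least 1 core, 0.37% at least 4, 0.0313% at least 7 and 0.0171% at least 8. The 3 metallothionein windows each had a core on the gene's own strand near the start, 48 to 54 bases before it in MT2A and 47 to 53 in MT1H and MT1X. SLC30A1 had its core on the strand opposite to the gene, 43 to 49 bases before the start. The antioxidant response element core TGACNNNGC, which Nrf2 binds and whose letters overlap those of AP-1 sites, was found once each in the windows of MT2A, MT1X and SLC30A1 and in 1 of the 2 SLC30A10 windows, and was present in 10.9% of all windows. In MT2A the match was TGACTCAGC, 96 to 104 bases before the start. Such matches describe the letters of a window and are not binding sites.

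All 7 metallothionein genes had lower values with Padma 28 than with EtOH. MT1M, an MT1 isoform gene with a single probe set, was 4.86-fold lower, and the other 6 were 1.19-fold to 1.54-fold lower. MTF1 and SLC30A10 lay close to their EtOH values, and SLC30A1 was 1.18-fold lower on its brightest probe set. A probe set counted as above background from 2 log2 units over the most frequent value of its array, at 4.35 with Padma 28 and 4.25 with EtOH. By that limit 16 of the 18 probe sets were above background on both arrays and 2 on neither.

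**Figure D1:**
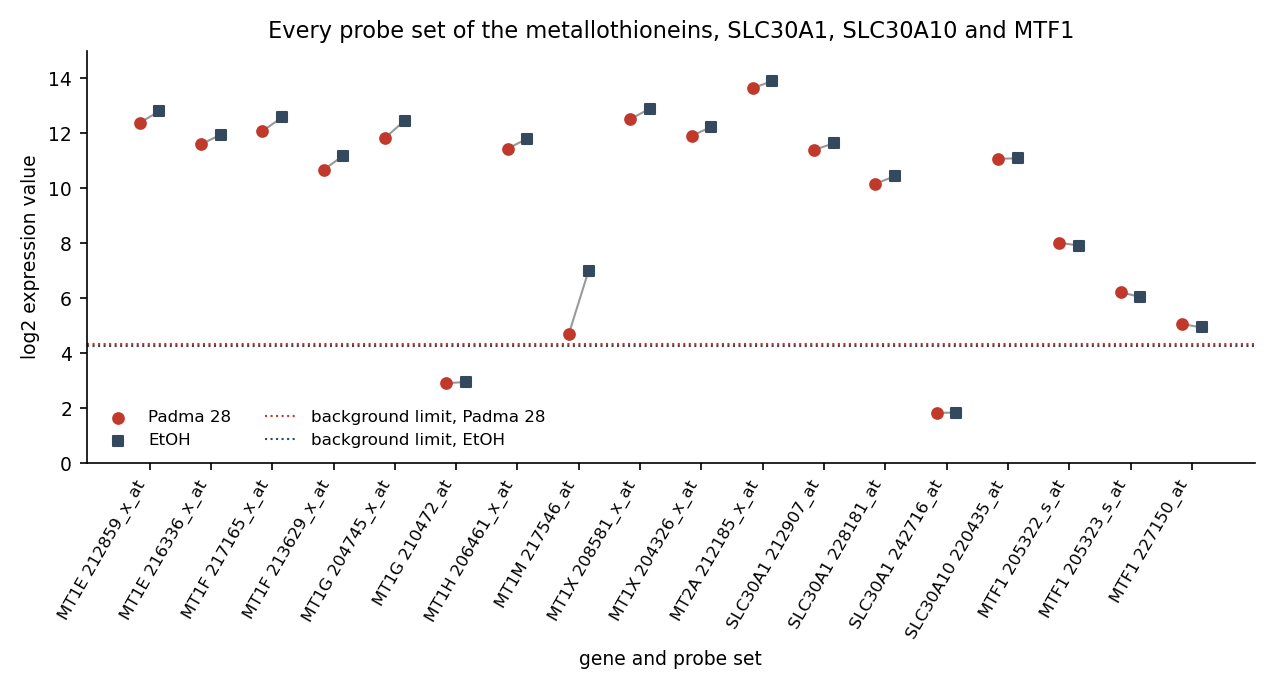
Log2 expression value (vertical axis) of each of the 18 probe sets of the 10 genes with Padma 28 (red circles) and with EtOH (dark squares), 1 array per treatment, where dotted lines mark the background limits of 4.35 and 4.25. The 10 metallothionein probe sets above background all lie lower with Padma 28, MT1M by 2.28 log2 units, while the 3 MTF1 probe sets lie slightly higher.

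MT1M was the only metallothionein past 2-fold. Its probe set 217546_at had a value of 4.72 with Padma 28, against 7.0 with EtOH, a log2 difference of -2.28. The Padma 28 value was 0.37 above the background limit of its array and the EtOH value 2.75 above. So 1 of 7 metallothionein genes was more than 2-fold lower. That held for 0.384% of all 19775 genes and for 0.609% of the 10186 genes above background on both arrays. None of the 7 was more than 2-fold higher, where 0.875% of all genes were. MT1M was also more than 4-fold lower, which held for 0.0303% of all genes, and ranked the 4th lowest among the 10186 genes above background on both arrays. The probe set lacks the suffix _x_at, which marks probes that can also bind transcripts of related genes. With 16 added to both linear values the log2 difference was -1.76 (3.40-fold lower), and with 64 added it was -1.09 (2.12-fold lower).

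MT1G, another MT1 isoform gene, had the second lowest difference of the family. Its probe set 204745_x_at was at 11.83 with Padma 28, against 12.46 with EtOH, a log2 difference of -0.63. A further MT1G probe set, 210472_at, was at 2.91 with Padma 28 and at 2.96 with EtOH, below background on both arrays, so it carries no fold change. Of the genes above background on both arrays, 2.20% had a lower difference than the bright MT1G probe set.

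MT1F was represented by 2 probe sets, which gave nearly the same difference at different levels. The probe set 217165_x_at was at 12.08 with Padma 28, against 12.58 with EtOH, and 213629_x_at was at 10.67 with Padma 28, against 11.19 with EtOH. The log2 differences were -0.50 and -0.52. They were 0.017 log2 units apart.

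MT1E, which lies beside MT1M in the gene cluster, also had 2 probe sets. Its probe set 212859_x_at was at 12.38 with Padma 28, against 12.80 with EtOH, a log2 difference of -0.42. The probe set 216336_x_at was at 11.59 with Padma 28, against 11.95 with EtOH, a log2 difference of -0.36. Both MT1E values therefore lay far from that of its neighbour MT1M.

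MT1X and MT1H followed at slightly smaller differences. For MT1X, the probe set 208581_x_at was at 12.51 with Padma 28, against 12.90 with EtOH, and 204326_x_at at 11.90 with Padma 28, against 12.23 with EtOH. The log2 differences of these 2 probe sets were -0.38 and -0.33. The annotation gives 204326_x_at to MT1X, whereas its transcript accession is that of the pseudogene MT1L in RefSeq. MT1H was at 11.44 with Padma 28, against 11.81 with EtOH, a log2 difference of -0.37 on its single probe set.

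MT2A, the ubiquitous metallothionein 2 gene, had the smallest difference. Its probe set 212185_x_at was at 13.65 with Padma 28, against 13.90 with EtOH, a log2 difference of -0.25, or 1.19-fold lower. Of the genes above background on both arrays, 12.9% had a lower difference.

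Over probe sets, 10 of the 10 metallothionein probe sets above background had differences below 0, with a median of -0.40. Of the 18367 probe sets with 1 gene that were above background on both arrays, 45.7% were below 0. Among the genes above background on both arrays 41.7% were, and the median of these genes was 0.06. Without MT1M, the 9 other metallothionein probe sets ranged from -0.63 to -0.25. These 9 all carry the _x_at suffix, so they are not independent readings of 6 genes. MT1HL1, a metallothionein-like gene on chromosome 1 that was not among the chosen genes and is also read by an _x_at probe set, was at 12.40 with Padma 28, against 12.69 with EtOH, a log2 difference of -0.29. The brain isoform gene MT3, at 4.09 with Padma 28 and 4.15 with EtOH, and the epithelial isoform gene MT4, at 2.26 with Padma 28 and 2.30 with EtOH, were below background on both arrays. MT1A and MT1B are not analysed here.

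Without replicate arrays, the spread between probe sets of the same gene shows how far single readings diverge. Over 4912 genes with 2 probe sets above background on both arrays, the log2 differences of the 2 brightest lay a median of 0.14 apart, and 90% of the genes lay within 0.46. The gap of 1.65 log2 units between MT1M and MT1G was exceeded in 3 of these genes, or 0.0611%. The range of 0.37 among the other 6 metallothioneins was exceeded in 15.6% and the size of the MT2A difference in 28.3%, so the order among these 6 is not resolved. The 18 hybridisation spike-in probe sets, which read control RNA added to each sample, had differences of -0.15 to 0.10, with a median of -0.09. Both measures say nothing of the spread between cultures. The gap between probe sets is not technical spread alone, since 2 probe sets can read different transcripts of a gene. Nor were the 4912 genes matched for level to MT1M, whose Padma 28 value lay only 0.37 above the background limit of its array. MT1M is also the metallothionein with the largest difference, so the share of 0.0611% is not a chance level for it.

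**Figure D2:**
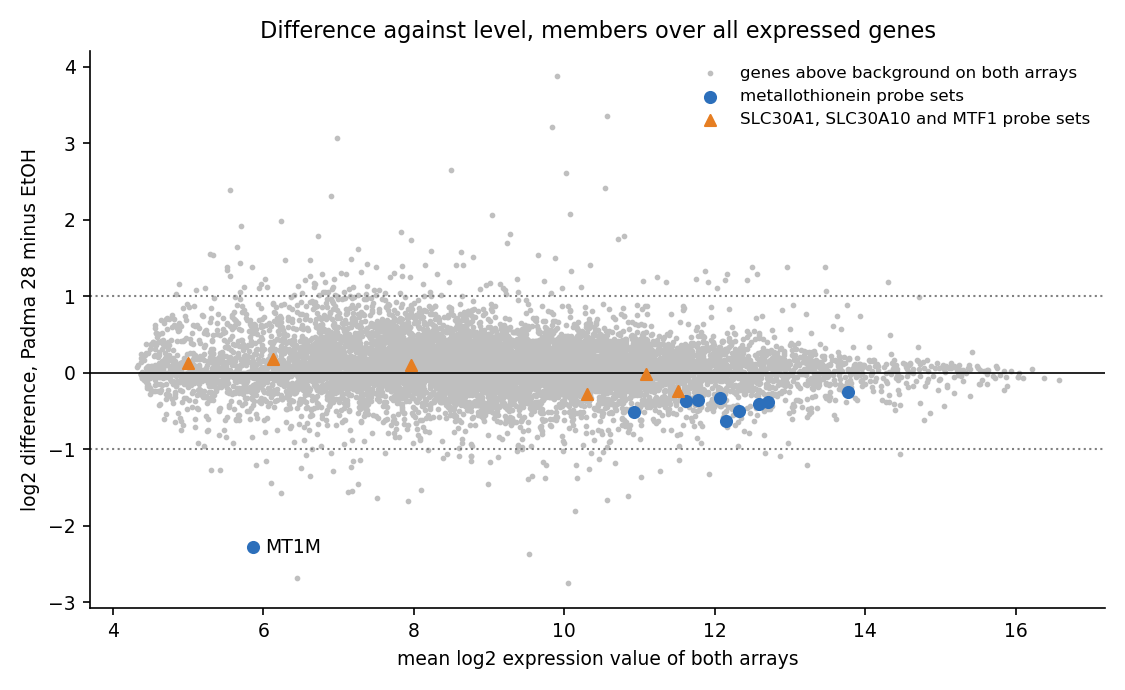
Log2 difference, Padma 28 minus EtOH (vertical axis), against the mean log2 value of both arrays (horizontal axis), from 1 array per treatment. Grey points are the 10186 genes above background on both arrays, blue circles the 10 metallothionein probe sets and orange triangles the 6 probe sets of SLC30A1, SLC30A10 and MTF1 above background, and dotted lines mark 2-fold. MT1M lies apart at -2.28, and the other metallothioneins lie between -0.63 and -0.25 at high levels.

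Most metallothionein values were high, so the difference was also set against level. Of 1870 genes with a mean level of at least 11, 43.5% were below 0 and 18.2% below -0.2, limits chosen after the values had been seen. Among all genes above background on both arrays, 16.3% were below -0.2. A loess curve through the differences was at 0.03 at the level of each of the 6 bright metallothioneins. After its subtraction their differences ranged from -0.66 to -0.28. MT1M was dimmer, at 4.72 with Padma 28 and 7.0 with EtOH, so the shares at a mean level of at least 11 do not apply to it. No such share was taken at its level. The loess curve was at -0.009 there, and the MT1M difference after subtraction was -2.27.

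The metallothionein genes other than MT1HL1 stand in a row on chromosome 16, and the measured neighbours of that row did not share the lower values. In the order of the RefSeq annotation, MT1M lies between MT1E, at -0.42, and the pseudogene MT1JP, which is not analysed here. Of the 6 nearest measured genes on each side of the cluster, 7 were above background, and all 7 had differences above 0, where 58.3% of the genes above background on both arrays did. They ranged from 0.03 for the G protein subunit GNAO1 to 0.58 for HERPUD1, a gene of the unfolded protein response. HERPUD1 was at 13.30 with Padma 28, against 12.72 with EtOH. The choice of these neighbours was made after values of the cluster had been seen.

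**Figure D3:**
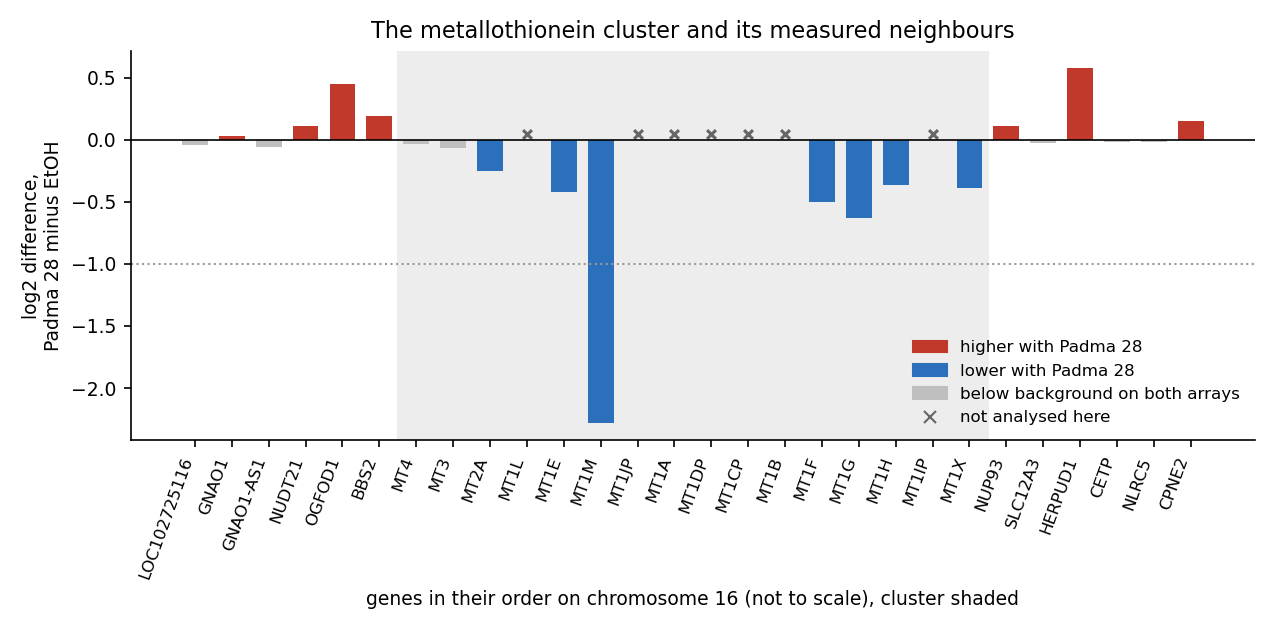
Log2 difference, Padma 28 minus EtOH (vertical axis), of the metallothionein loci and of the 6 nearest measured genes on each side, in their order along chromosome 16 (horizontal axis, not to scale), 1 array per treatment. Each bar gives a gene by its brightest probe set, grey bars are below background on both arrays and crosses are loci not analysed here; all 7 expressed metallothioneins lie below 0 and the 7 expressed neighbours above it.

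The zinc exporter SLC30A1, a target of MTF1 like the metallothioneins, had slightly lower values. Its probe set 212907_at was at 11.40 with Padma 28, against 11.64 with EtOH, and 228181_at was at 10.16 with Padma 28, against 10.44 with EtOH. The log2 differences were -0.24 and -0.28, within 0.039 of each other. A further one, 242716_at, was at 1.83 with Padma 28 and at 1.84 with EtOH, below background on both arrays. Of the genes above background on both arrays, 13.7% had a lower difference than the brightest SLC30A1 probe set.

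SLC30A10 was expressed and had nearly the same value on both arrays. Its single probe set was at 11.07 with Padma 28 and at 11.09 with EtOH. The log2 difference of -0.01 was 0.01 with median centring and 0.08 with centring on the spike-ins, so no direction is given.

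MTF1, the zinc sensor itself, had values slightly above those of the solvent control on all its probe sets. They were 8.02, 6.22 and 5.06 with Padma 28, against 7.91, 6.05 and 4.94 with EtOH. The log2 differences were 0.11, 0.17 and 0.13. All 3 were above the median of 0.06 over the genes above background on both arrays, and 2 of the 3 were smaller than the median gap of 0.14 between probe sets of a gene.

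The other zinc transporters lay on both sides of 0. Of 22 further genes of the SLC30 and SLC39 families, which move zinc out of and into the cytosol, 16 were above background and none passed 2-fold, where 1.88% of the genes above background on both arrays and 1.26% of all genes did. The median of the 16 was 0.093, with 12 above 0 and 4 below. Of the genes above background on both arrays, 58.3% were above 0, and the median of these genes was 0.06. Among the exporters, SLC30A6 of the secretory pathway was at 9.38 with Padma 28, against 9.02 with EtOH (log2 difference 0.36). SLC30A7, a Golgi transporter, was at 8.94 with Padma 28, against 8.68 with EtOH (0.25), while 2 further probe sets of it were at -0.28 and -0.33. SLC30A5, also of the secretory pathway, had a log2 difference of 0.07. SLC30A9 was at 0.06 on its brightest probe set, whereas a second was at 8.0 with Padma 28, against 6.86 with EtOH (1.14), so its probe sets disagree.

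Among the importers, SLC39A10, which MTF1 is known from mouse to repress, was at 10.23 with Padma 28, against 9.94 with EtOH (log2 difference 0.29). SLC39A3 was at 10.01 with Padma 28, against 9.71 with EtOH (0.31). SLC39A7, which releases zinc from the endoplasmic reticulum, was at 9.84 with Padma 28, against 9.57 with EtOH (0.27). SLC39A11 was at 7.67 with Padma 28, against 7.94 with EtOH (-0.27), a lower difference than that of MT2A. SLC39A14, an importer of zinc, iron and manganese in hepatocytes, was at 13.68 with Padma 28, against 13.84 with EtOH (-0.16), and at -0.42 on a second probe set.

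Metallothioneins also bind copper, and 2 of the copper genes passed 2-fold, in opposite directions. Of 12 genes of copper handling, 11 were above background on a probe set of theirs alone, with a median of 0.06. Of these, 1 was more than 2-fold higher, where 0.875% of all genes were, and 1 more than 2-fold lower, where 0.384% were. Among the 10186 genes above background on both arrays, 130 were more than 2-fold higher and 62 more than 2-fold lower. The copper chaperone COX17 was below background on its own probe set, and 1 that it shares with POPDC2 was at 9.66 with Padma 28 and 9.56 with EtOH. CUTC, a copper-binding protein, was at 8.47 with Padma 28, against 7.21 with EtOH (log2 difference 1.27). CP, which encodes ceruloplasmin, the copper-carrying ferroxidase of plasma, was at 12.33 with Padma 28, against 13.42 with EtOH (-1.08). Further CP probe sets were at -0.82 and -1.04, and a dimmer one at 0.44. The mitochondrial copper chaperone SCO2 was at 0.38, the copper importer SLC31A1 at 0.28, with dimmer probe sets at -0.05 and -0.13, and the hepatic copper exporter ATP7B at -0.04.

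Genes of the response to metals and heat, the factor HSF1 among them, did not show 1 direction. HMOX1, the inducible heme oxygenase, was at 10.07 with Padma 28, against 8.02 with EtOH (log2 difference 2.05), opposite in sign to the metallothioneins. The co-chaperone DNAJB1 was at -0.25 and the co-chaperone BAG3 at -0.03. For the chaperone HSPH1 the brightest probe set gave 0.05 and dimmer ones 0.29 and 1.35, the last at 5.93 with Padma 28, against 4.57 with EtOH. The heat shock factor HSF1 was at 0.08 on the brighter and at -0.26 on the dimmer probe set, so the probe sets of both genes disagree. The inducible chaperone genes HSPA1A and HSPA1B share 3 probe sets, 1 of them also with HSPA1L, and these were at -0.43, -0.60 and -0.72. By the brightest probe set of their own, 1 of 6 genes was more than 2-fold higher, where 0.875% of all genes were. None was more than 2-fold lower, where 0.384% were. HSF1 is in this count, while HSPA1A and HSPA1B, which have no probe set of their own, are not. Among the 10186 genes above background on both arrays, 130 were more than 2-fold higher and 62 more than 2-fold lower.

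Of 7 other genes that have been linked to MTF1, mostly in mouse cells, 5 were above 0 and 2 below, with a median of 0.25. Of the genes above background on both arrays, 58.3% were above 0, with a median of 0.06. The 5 include SLC39A10 (0.29), which MTF1 is known from mouse to repress. The count and the median therefore do not stand for 1 direction of control by MTF1. GCLC, the catalytic subunit of glutamate-cysteine ligase and also an Nrf2 target, was at 13.18 with Padma 28, against 11.81 with EtOH (log2 difference 1.38), and its other probe sets were at 1.62 and 1.74. CSRP1, a cysteine-rich LIM protein, was at 9.18 with Padma 28, against 8.58 with EtOH (0.61). The selenoprotein SELENOW was at 0.25 and NDRG1 at 0.01. GCLC was thus the 1 gene of the 7 more than 2-fold higher, where 0.875% of all genes were, and none was more than 2-fold lower, where 0.384% were. Among the 10186 genes above background on both arrays, 130 were higher and 62 lower by that measure.

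**Figure D4:**
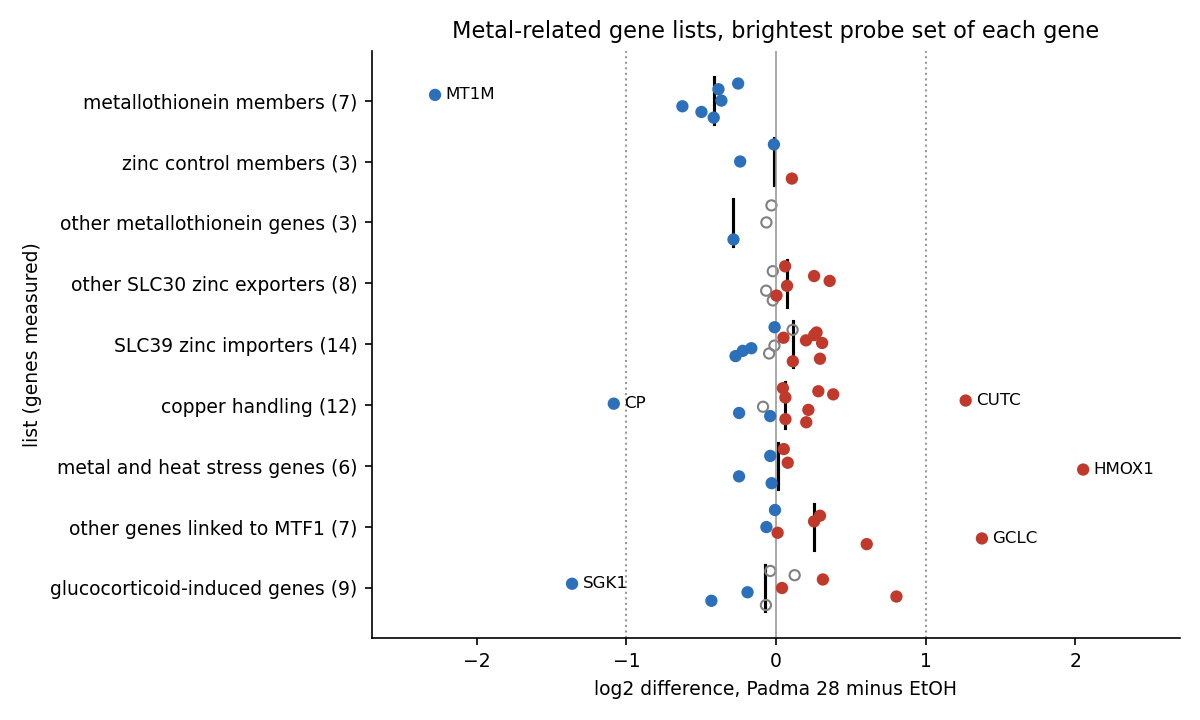
Log2 difference, Padma 28 minus EtOH (horizontal axis), of the genes of 9 lists (vertical axis, genes measured in brackets), 1 array per treatment. The lists are metal-related except for that of the glucocorticoid-induced genes. Each point is the brightest probe set of a gene, red above and blue below 0, open points lie under the background limits of both arrays, black bars are medians of the expressed genes and dotted lines mark 2-fold; the metallothioneins lie left of 0 as a group, while the zinc transporters lie around it.

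Hepatic markers were expressed on both arrays, mostly with lower values with Padma 28. All 8 hepatocyte markers measured were expressed, from 12.84 for TTR to 16.52 for ALB with Padma 28 and from 13.28 for TTR to 16.62 for ALB with EtOH. All 8 had differences below 0, with a median of -0.20, including the fibrinogen chain FGB at -0.55, the thyroxine carrier TTR at -0.44, the apolipoprotein APOB at -0.30 and the fetal liver protein AFP at -0.23, and their part in the metallothionein result was not tested. Dimmer probe sets of the same markers reached further down, with ALB at -1.07, TF at -1.23 and -0.96, APOB at -0.88 and SERPINA1 at -0.55. Over all 20 hepatocyte marker probe sets above background, 18 were below 0 and 2 more than 2-fold lower, where 45.7% and 0.855% of all such probe sets were. Of 5 markers of other cell types, PTPRC, DCN and LUM were below background on both arrays. COL1A1 was at 6.71 with Padma 28 and 6.74 with EtOH, and PECAM1 at 6.81 with Padma 28 and 6.49 with EtOH, each on 1 probe set, with all their other probe sets below background. As a sign of RNA integrity, the 3′ probe set of GAPDH exceeded the 5′ one by 0.036 with Padma 28 and by 0.079 with EtOH, and that of ACTB by 1.13 on both arrays.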

How the data were processed

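Each treatment was read on 1 Affymetrix U133 Plus 2.0 array, from RNA of 3 pooled cultures. The authors deposited log2 expression values of 54675 probe sets, made with GCRMA (background correction from probe sequence, quantile normalization, median polish). Versions in the submitters' processing notes are 2.28.0 for GCRMA and 2.15.1 for R, while the paper names earlier ones of both. The unspecific filter of the paper was not applied. Quantile normalization brings both arrays to nearly 1 distribution, so a difference is relative to all probe sets.

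Log2 differences were taken as in the paper, with its 2-fold threshold. A gene was represented by its own probe set with the highest mean, which gave 19775 genes. The arrays, 2 in all, limit the precision, and no p-value was computed. Genes were named from the platform annotation; RefSeq of GRCh38.p14 gave gene order and promoters. The genes and lists were chosen with earlier results of these data known. Named were all 10 genes with every probe set, and from each other list the genes past 2-fold and up to 4 with the largest difference above background. Knowing their values, MT3, MT4, ATP7B, BAG3, NDRG1, NR3C1, PER1, SLC39A14, HSPA1A, HSPA1B, COX17, ALB, TF, SERPINA1 and genes flanking the cluster were added, and the undetected markers. Alternatives were other choices of probe set, 16 or 64 added to linear values, centring, loess (span 0.3), repeated quantile normalization and filters at 2 and 3 log2 units over the most frequent value. Centring on the spike-ins was chosen after seeing the data. The steps were tested on simulated data. Python (3.11.15) was used with statsmodels (0.14.6) for loess, pandas (2.3.3), matplotlib (3.10.9) and numpy (2.4.6).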

Additional observations from a re-analysis of the deposited data

How the results depend on the processing

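All 7 metallothionein genes stayed below 0 under each of the 11 alternatives that measured them all, and MT1M stayed more than 2-fold lower under all 12, from -2.33 to -1.09. MT1M has a single probe set, of the _at type and shared with no other gene. The other choices of probe set and both filters therefore could not change its value of -2.28. Under the stricter filter MT1M was kept by its EtOH value alone. Only the added amounts, centring, loess and repeated quantile normalization could move it. Without _x_at and _s_at probe sets, MT1M and the dim MT1G probe set alone remained, so the median of the metallothionein genes was -1.16 in place of -0.42 and MT1G was at -0.05; with the median over probe sets MT1G was at -0.34. With the probe set of largest difference, 1 zinc transporter, SLC30A9, passed 2-fold in place of 0. SLC30A1 ranged from -0.28 to -0.15, SLC30A10 from -0.05 to 0.08 and MTF1 from 0.05 to 0.20. Of 163 values under alternatives, 157 moved by less than the median gap between probe sets of a gene, 0.14 (counts: by no more than 1.5 times), and 6 moved more. Many of the 157 could not have moved further. None of the chosen genes shares a probe set, so counting shared ones could not change their log2 differences. The filters only drop genes, and both kinds of centring shift every gene by the same amount, smaller than 0.14. The share of 157 in 163 is therefore not a measure of robustness. The signs of the 7 metallothionein genes were likewise hardly free to change. Added amounts cannot turn a sign, and the centring shifts were smaller in size than the smallest difference, -0.25 for MT2A. The background of 76 genes lower and 173 higher became 153 and 264 with the probe set of largest difference, 60 and 114 with the median over probe sets, 54 and 97 with 16 added, and 34 and 64 with 64 added. No array could be left out, and no paired analysis was possible because each treatment has 1 array. With 1 pool per treatment, effects of the extract and differences between pools cannot be told apart.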

Other observations

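Glucocorticoids are known inducers of metallothionein genes. A list of glucocorticoid-induced genes, which also held the receptor gene, did not show 1 direction. FKBP5, a co-chaperone of the glucocorticoid receptor, was at 9.12 with Padma 28, against 8.31 with EtOH (log2 difference 0.81), with a second probe set at 0.85 and another, above background with Padma 28 only, at 0.80. SGK1, a serum- and glucocorticoid-induced kinase, was at 10.33 with Padma 28, against 11.70 with EtOH (-1.36). The phosphatase DUSP1 was at 12.25 with Padma 28, against 12.68 with EtOH (-0.43), with a dimmer probe set at -0.61, and the tyrosine aminotransferase TAT at 6.24 with Padma 28, against 5.93 with EtOH (0.31). The receptor gene NR3C1 was at 0.04, with further probe sets from -0.29 to 0.02. Of the 9 genes measured on a probe set of their own, 6 were above background, 3 of them above 0, NR3C1 included, and 3 below. PER1 has only probe sets shared with MIR6883 and is not in this count. Those above background on both arrays were at -0.37 and -0.27.

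Outside the lists, the genes above background on both arrays with the log2 difference nearest to that of MT1M, each by its brightest probe set, were SLC13A3, a dicarboxylate transporter, at -2.38, HLMR1 at -2.68 and DKK1, a secreted Wnt antagonist, at -2.74. Likeness was the distance between log2 differences over 2 arrays, 0.096, 0.40 and 0.46.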
